A study of Rattus norvegicus with 6 samples.

Results

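The TNF superfamily, Toll-like receptor and NF-kB genes are 56 of the 14607 genes listed for 2 mural cell types of the rat cortex. They were taken by gene symbol, as every gene whose symbol begins like those of TNF ligands, TNF receptors, TRAF adaptors, Toll-like receptors, IRAK kinases, IKK and NF-kB subunits, or the TNFAIP and TNIP proteins. The mRNA of 6 samples was sequenced (RNA-Seq), 3 of vascular smooth muscle cells (VSMCs) and 3 of mid-capillary pericytes (mcPCs), 1 of each from each of 3 isolations of pooled cortices of male Sprague-Dawley rats aged 4 to 5 weeks. The comparison asks how mural cells of arterioles and of mid-capillaries differ in their transcriptomes. VSMCs came from arterioles retained on a filter, dissociated with harsher enzymes, depleted of CD31+ and CD11b+ cells and selected with a lectin of Griffonia simplicifolia. mcPCs were the cells of the filtrate, released by a milder enzyme, that remained after depletion with antibodies to CD31, CD11b, GLAST and O4. No antibody selected mcPCs positively, and the enzymes used differed between the groups, so that cell type, dissociation and sort cannot be told apart here.

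TNF ligands bind trimeric receptors that recruit TRAF adaptors, and Toll-like receptors, which detect microbial and damage-related molecules, signal through Myd88 and IRAK kinases to TRAF6. Both routes converge on the IKK complex, which marks inhibitors of NF-kB for degradation and so releases dimers of the NF-kB subunits into the nucleus. Cells of the vessel wall use this system to respond to inflammatory signals, and blood and brain immune cells are rich in many of its receptors. NF-kB also binds the promoters of several of its own regulators, such as A20, the ubiquitin-editing enzyme encoded by Tnfaip3.

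The kB consensus motif, the 10-base sequence that NF-kB dimers bind, was therefore searched on both strands of the promoters of these genes, from 250 bases before to 50 bases after the RefSeq transcription start (GRCr8), with overlapping matches counted separately. RefSeq promoters were at hand for 44 of the 56 genes, and 11 of these (25%) held at least 1 match. Of all 33469 promoters of the same length, 2515 (7.51%) held one. Matches were present in 4 of 21 promoters of genes at least 2-fold higher in mcPCs (Irak3, Tlr2, Tnfaip3 and Tnfaip8l1), in 0 of 5 of those higher in VSMCs and in 7 of 18 of the remaining ones (Ikbkg, Nfkb1, Nfkb2, Rel, Tnip1, Traf3 and Traf7). A match is a description of the letters, not of binding. The 250 bases before the start are given for the promoters with more than 1 match, 5′ to 3′ on the strand of the gene, with the matches in capitals. All 4 genes lie on the minus strand. Tnfaip3 and Tlr2 stood higher in mcPCs, whereas Rel and Tnip1, which encode an NF-kB subunit and a partner of A20, differed less than 2-fold.
Tnfaip3 (chr1:15543980-15544229, 3 matches): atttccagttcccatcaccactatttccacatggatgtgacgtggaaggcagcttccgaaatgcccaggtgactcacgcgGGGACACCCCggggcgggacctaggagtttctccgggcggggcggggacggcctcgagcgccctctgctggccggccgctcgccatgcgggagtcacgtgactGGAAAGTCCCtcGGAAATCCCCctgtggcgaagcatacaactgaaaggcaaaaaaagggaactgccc
Tlr2 (chr2:171504558-171504807, 3 matches): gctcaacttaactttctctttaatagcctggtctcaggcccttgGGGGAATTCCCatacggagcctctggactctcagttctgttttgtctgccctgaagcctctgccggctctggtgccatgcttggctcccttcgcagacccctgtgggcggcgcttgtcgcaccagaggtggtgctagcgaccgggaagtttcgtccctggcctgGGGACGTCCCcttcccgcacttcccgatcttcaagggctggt
Rel (chr14:101921939-101922188, 4 matches): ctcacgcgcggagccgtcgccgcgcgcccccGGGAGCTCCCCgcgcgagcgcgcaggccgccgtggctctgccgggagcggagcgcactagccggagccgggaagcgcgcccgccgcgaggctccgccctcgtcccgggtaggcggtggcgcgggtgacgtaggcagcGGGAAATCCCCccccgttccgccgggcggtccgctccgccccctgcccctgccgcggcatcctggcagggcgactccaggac
Tnip1 (chr10:39584962-39585211, 3 matches): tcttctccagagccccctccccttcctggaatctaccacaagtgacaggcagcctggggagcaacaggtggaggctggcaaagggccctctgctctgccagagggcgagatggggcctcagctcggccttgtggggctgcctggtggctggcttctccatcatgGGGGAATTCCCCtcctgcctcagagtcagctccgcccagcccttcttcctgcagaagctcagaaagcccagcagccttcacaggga

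The values analysed are the authors' means of each cell type, with no value per sample, so no spread between isolations and no test can be given. Levels of different genes within a cell type are compared as TPM, which is corrected for transcript length. Differences between the cell types are ratios of mean normalized counts, with a 95% interval that covers the counting error of the reads only and not the variation between isolations. Assigned reads came to 62.0 M (M, 1e6) in a VSMC sample on average and to 48.0 M in a mcPC sample. TPM is compressed in mcPCs, where erythrocyte markers held 54.3% of it, and the ratio of TPM was -1.79 on the log2 scale for the median gene, whereas the ratio of normalized counts was 0.01. As in any bulk sample, fewer cells of a type and less RNA per cell cannot be told apart.

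Among the 56 genes, 26 (46.4%) had normalized counts at least 2-fold above those of VSMCs in mcPCs, against 22.0% of all genes, and 6 (10.7%) were at least 2-fold higher in VSMCs, against 13.9% of all genes. By the ratio of TPM as it stands the split was 13 and 29 (all genes 8.17% and 74.8%), and with counts scaled to the same total 21 and 10 (all genes 15.5% and 28.8%). The median log2 ratio was 0.66 for the 56 genes and 0.01 for all genes. The counting interval lay wholly past 2-fold for 22 of the 26 genes and for all 6 of the VSMC genes. These were 39.3% and 10.7% of the 56 genes, against 18.7% and 11.9% of all genes. In mcPCs 18 genes exceeded 4-fold, against 12.4% of all genes. Most of the mcPC-higher genes were scarce in VSMCs. The authors left genes below 0.8 TPM in VSMCs out of their final set, since mcPCs held more endothelial transcripts than VSMCs. Such genes are kept here. Of the 17 genes below 0.8 TPM in VSMCs, 16 were higher in mcPCs, and 67.4% of all genes that low in VSMCs were too. Of the 39 genes at or above 0.8 TPM in VSMCs, 10 (25.6%) were higher in mcPCs, against 13.1% of all genes at that level, and all 6 VSMC-higher genes were among these 39. By TPM, 20 of the 56 genes were higher in mcPCs, against 13.7% of all genes, and these 20 were all among the 26. The rest of the 26, Irak3, Tlr2, Tlr10, Tnfrsf13c, Tnfrsf17 and Tnfaip8l3, had a lower TPM there.

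**Figure D1:**
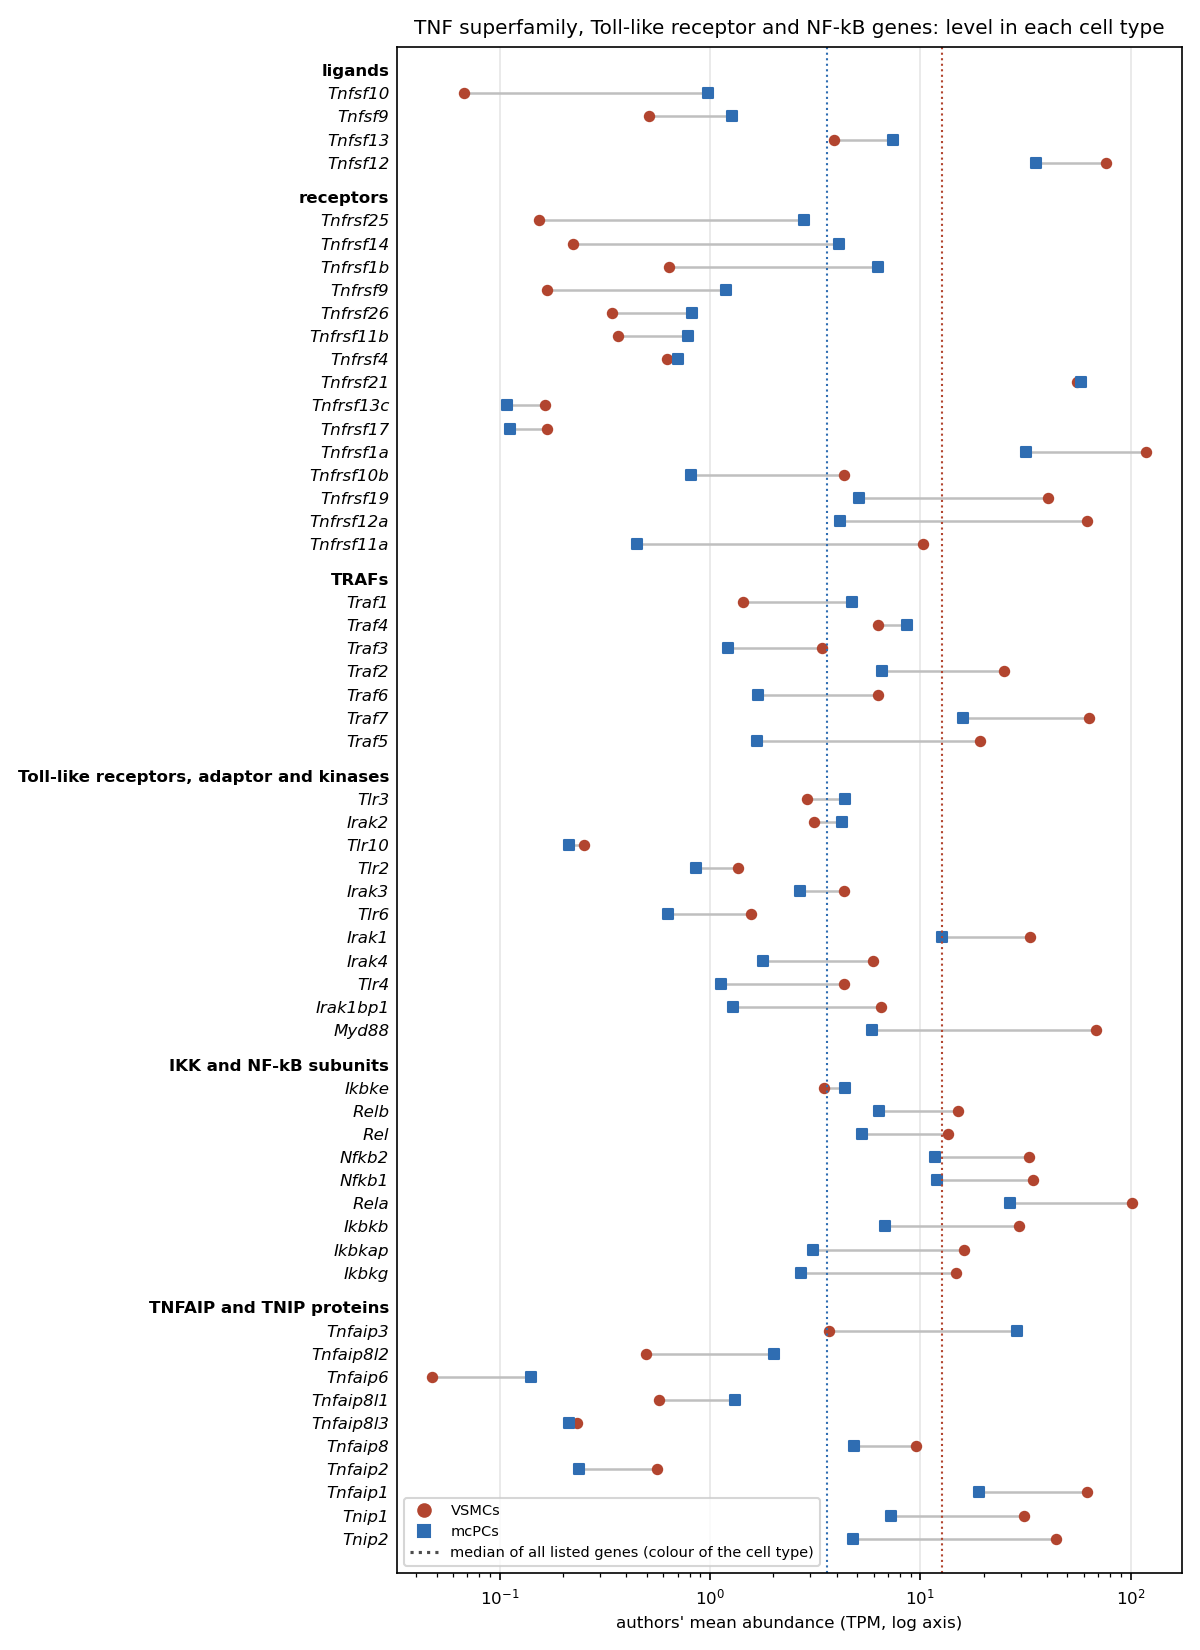
Mean abundance of each of the 56 genes in VSMCs (red circles) and mcPCs (blue squares), in TPM on a log axis, grouped by role and ordered by the ratio of normalized counts. Dotted lines mark the median of all listed genes, 12.7 TPM for VSMCs and 3.59 TPM for mcPCs. The blue squares lie to the right of the red circles for 20 genes, and 13.7% of all listed genes had a higher TPM in mcPCs.

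The sorted cells carried the markers of their labels. For the pericyte list this was known beforehand, since the paper reported Abcc9, Kcnj8, Ggt1 and Atp13a5 as mcPC-specific from this same comparison. All 6 smooth muscle markers were higher in VSMCs (median log2 ratio -8.01) and all 4 mid-capillary pericyte markers were higher in mcPCs (6.92), Kcnj8 at 17.2 TPM in VSMCs against 346 in mcPCs and Abcc9 at 12.4 TPM in VSMCs against 320.4 in mcPCs. Of the mural markers shared by the cell types, Rgs5 and Cspg4 differed less than 2-fold, whereas Pdgfrb was 2.25-fold higher in mcPCs by normalized counts and lower by TPM (614 TPM in VSMCs against 388). Markers of other cells moved with the mcPCs. All 8 of the listed microglia and macrophage markers with a value were higher in mcPCs and their summed level reached 55.3 TPM in mcPCs while none exceeded 0.210 TPM in VSMCs. Laptm5, a lysosomal protein of leukocytes, made up 38.2 TPM of that sum. All 6 blood leukocyte and platelet markers with a value were also higher (median 6.37), with a sum of 84.4 TPM in mcPCs and 1.80 in VSMCs. These included Ptprc (CD45, the phosphatase of white blood cells) at 0.0659 TPM in VSMCs against 15.1 in mcPCs, Coro1a at 0.136 TPM in VSMCs against 50.5 in mcPCs and Prf1, the perforin of cytotoxic lymphocytes, at 0.183 TPM in VSMCs against 9.34 in mcPCs. The microglial genes P2ry12, Aif1 and Tyrobp and the lymphocyte genes Cd3e, Cd3d and Cd79a have no row among the listed genes, and neither do 8 of 16 markers of the former list and 14 of 20 of the latter. Endothelial markers were higher in mcPCs for 12 of 18, Cldn5 at 0.643 TPM in VSMCs against 15.4 in mcPCs, although their summed TPM was lower there (308 against 800.1). That sum rested on Esam (487 TPM in VSMCs against 184 in mcPCs), Ly6e (146 against 48.8) and Slc2a1 (115 against 23.9). These genes differed less than 2-fold by normalized counts. Markers of astrocytes, neurons and oligodendrocytes were higher for 10 of 11 (summed TPM 40.6 against 7.76), and those of erythrocytes for 13 of 14. The part of these cells in the values below was not tested.

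**Figure D2:**
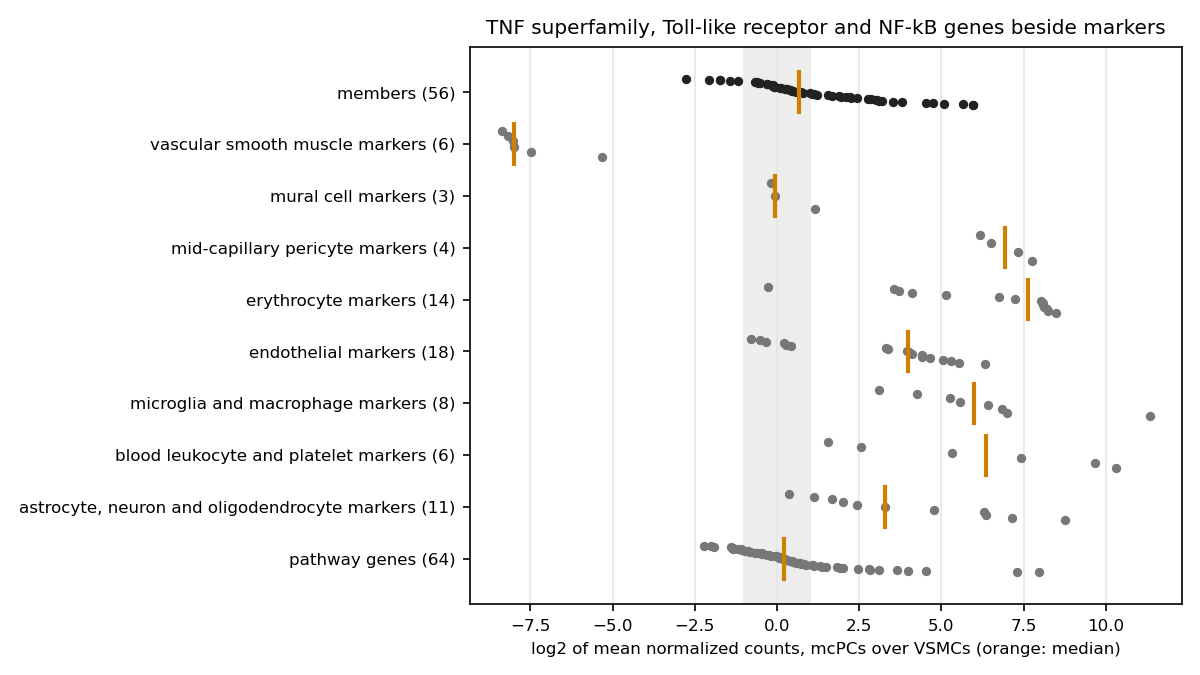
Log2 ratio of mean normalized counts (mcPCs over VSMCs) for the 56 genes, the pathway genes and the marker lists, 1 point per gene, with the number of genes in parentheses, the median in orange and the range of less than 2-fold in grey. The 56 genes span -2.77 to 5.97, with a median of 0.66. All points of the microglia, leukocyte and mid-capillary pericyte lists lie above 1. So do 13 of 14 erythrocyte, 12 of 18 endothelial and 10 of 11 astrocyte, neuron and oligodendrocyte points.

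Of the ligands, 3 of 4 were higher in mcPCs. Tnfsf12, which encodes TWEAK, was the most abundant by far, at 76.7 TPM in VSMCs against 35.6 in mcPCs, or 94.5% in VSMCs and 78.6% in mcPCs of the ligand TPM, and differed by 1.66-fold (95% counting interval 1.62 to 1.71). Tnfsf13 (APRIL, a survival factor of B cells and plasma cells) was measured at 3.87 TPM in VSMCs against 7.42 in mcPCs, with 212 and 741 reads a sample, a difference of 6.77-fold (6.20 to 7.41). Tnfsf9 (the ligand of 4-1BB, a costimulator of T cells) was low, at 0.513 TPM in VSMCs against 1.28 in mcPCs, with 24.3 and 103 reads a sample, and differed by 8.63-fold (6.67 to 11.3). Tnfsf10 (TRAIL, which can trigger death of the receiving cell) had the largest ligand difference, 50.4-fold (34.0 to 76.3), between 0.0677 and 0.978 TPM, which came from 8.91 and 257 reads a sample. The ligands whose ratio was largest were those nearest to absent in VSMCs. Tnf itself has no row among the listed genes, and neither does Tnfsf11, the ligand of RANK.

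Of the receptors for TNF itself, one differed little and the other strongly. Tnfrsf1a (TNFR1, which most cells carry) had the highest TPM of the 56 genes in VSMCs. It was present at 119 TPM in VSMCs against 31.9 in mcPCs, and the ratio of its normalized counts was 0.959 (95% counting interval 0.939 to 0.978). Tnfrsf1b (TNFR2, more restricted and typical of immune and endothelial cells) stood at 0.635 TPM in VSMCs against 6.28 in mcPCs, with 69.3 and 1243 reads a sample, a difference of 33.5-fold (29.1 to 38.7). The TPM of Tnfrsf1a was 187 times that of Tnfrsf1b in VSMCs and 5.07 times in mcPCs.

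Tnfrsf21 (death receptor 6, studied in axon pruning and in brain endothelium) led in mcPCs. It had the highest TPM of the 56 genes there, 57.9, at percentile 95.9 of all genes, against 55.9 TPM and percentile 81.8 in VSMCs. It was also the best counted of the mcPC-higher genes, with 9316 and 18051 reads a sample, and its difference was 3.72-fold (3.67 to 3.78). It made up 19.0% in VSMCs and 49.4% in mcPCs of the summed TPM of the 15 receptors, while Tnfrsf1a made up 40.3% in VSMCs and 27.2% in mcPCs. Thus Tnfrsf1a stood 2.13 times above Tnfrsf21 in VSMCs, and Tnfrsf21 stood 1.82 times above Tnfrsf1a in mcPCs.

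Besides Tnfrsf1b, which had the third largest ratio among the receptors, Tnfrsf25, Tnfrsf14 and Tnfrsf9 exceeded 16-fold, and all 3 were below 0.8 TPM in VSMCs. Tnfrsf25 (death receptor 3, a costimulator of T cells) was found at 0.154 TPM in VSMCs against 2.79 in mcPCs, from 8 and 291 reads a sample, a difference of 62.7-fold (41.9 to 98.4). Tnfrsf14 (HVEM, which binds LIGHT and BTLA) was measured at 0.222 TPM in VSMCs against 4.12 in mcPCs, from 17.0 and 555 reads a sample, a difference of 62.0-fold (47.0 to 83.8). Tnfrsf9 (4-1BB) was present at 0.168 TPM in VSMCs against 1.19 in mcPCs, from 7.33 and 95.7 reads a sample, a difference of 23.4-fold (15.2 to 37.9). All 3 stayed below Ptprc in mcPCs. On the log2 scale the 6 leukocyte and platelet markers ranged from 1.55 (Itga2b) to 10.31 (Coro1a). The endothelial markers ranged from -0.78 to 6.34, the astrocyte, neuron and oligodendrocyte markers from 0.36 to 8.76, and the microglia and macrophage markers from 3.11 to 11.34. The ratios of Tnfrsf25 (5.97), Tnfrsf14 (5.95) and Tnfrsf9 (4.55) lay within each of these wide ranges. They lay below the range of the mid-capillary pericyte markers, 6.17 (Kcnj8) to 7.75 (Ggt1). The cell source of these receptors was not tested. Tnfrsf4 (OX40, also a costimulator of T cells) stood at 0.625 TPM in VSMCs against 0.706 in mcPCs, with 21 and 42.3 reads a sample and a difference of 3.83-fold (2.81 to 5.27).

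Tnfrsf11b (osteoprotegerin, a secreted decoy that binds RANK ligand and TRAIL) was found at 0.366 TPM in VSMCs against 0.789 in mcPCs, with 41.4 and 160.2 reads a sample and a difference of 7.30-fold (5.98 to 8.97). Tnfrsf26 was measured at 0.343 TPM in VSMCs against 0.823 in mcPCs, with 29.3 and 133 reads a sample and a difference of 8.21-fold (6.50 to 10.5). Osteoprotegerin and RANK thus stood on opposite sides. The B cell receptors Tnfrsf13c (BAFF receptor) and Tnfrsf17 (BCMA) were near the limit of detection. Tnfrsf13c had 10.4 and 11.7 reads a sample (0.163 TPM in VSMCs against 0.108 in mcPCs), a difference of 2.33-fold (1.40 to 3.92). Tnfrsf17 had 5 and 6.67 reads a sample (0.168 TPM in VSMCs against 0.112 in mcPCs), a difference of 2.03-fold (0.986 to 4.25), and its interval includes equality.

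Of the 15 receptors, 3 were higher in VSMCs. Tnfrsf11a (RANK, known from osteoclast formation) had the largest VSMC-ward difference of the 56 genes, 6.81-fold (log2 ratio -2.77, interval -2.96 to -2.59), with 10.3 TPM in VSMCs against 0.450 in mcPCs and 1104 and 86.3 reads a sample. Tnfrsf12a (Fn14, the receptor of TWEAK, readily induced by injury and growth factors) was present at 62.0 TPM in VSMCs against 4.14 in mcPCs, with 1884 and 236 reads a sample and a difference of 4.19-fold (3.87 to 4.54). Tnfrsf19 (TROY) stood at 40.6 TPM in VSMCs against 5.12 in mcPCs, with 3868 and 1253 reads a sample and a difference of 2.28-fold (2.19 to 2.36). Its mean effective length was 1.40 times longer in mcPCs than in VSMCs, and with counts scaled without erythrocyte markers, which carry no length correction, its log2 ratio was -0.70, less than 2-fold. A change of at least 1.1-fold in effective length was found for 3 of the 56 genes (Tnfrsf19, Relb and Tlr6) and for 4.38% of all genes. Ligand and receptor of the TWEAK pair stood apart, since the TPM of Tnfsf12 was 1.24 times that of Tnfrsf12a in VSMCs and 8.60 times in mcPCs. Tnfrsf10b, the death receptor of TRAIL, was found at 4.35 TPM in VSMCs against 0.811 in mcPCs and was 1.51-fold (1.28 to 1.78) higher in VSMCs, less than 2-fold.

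**Figure D3:**
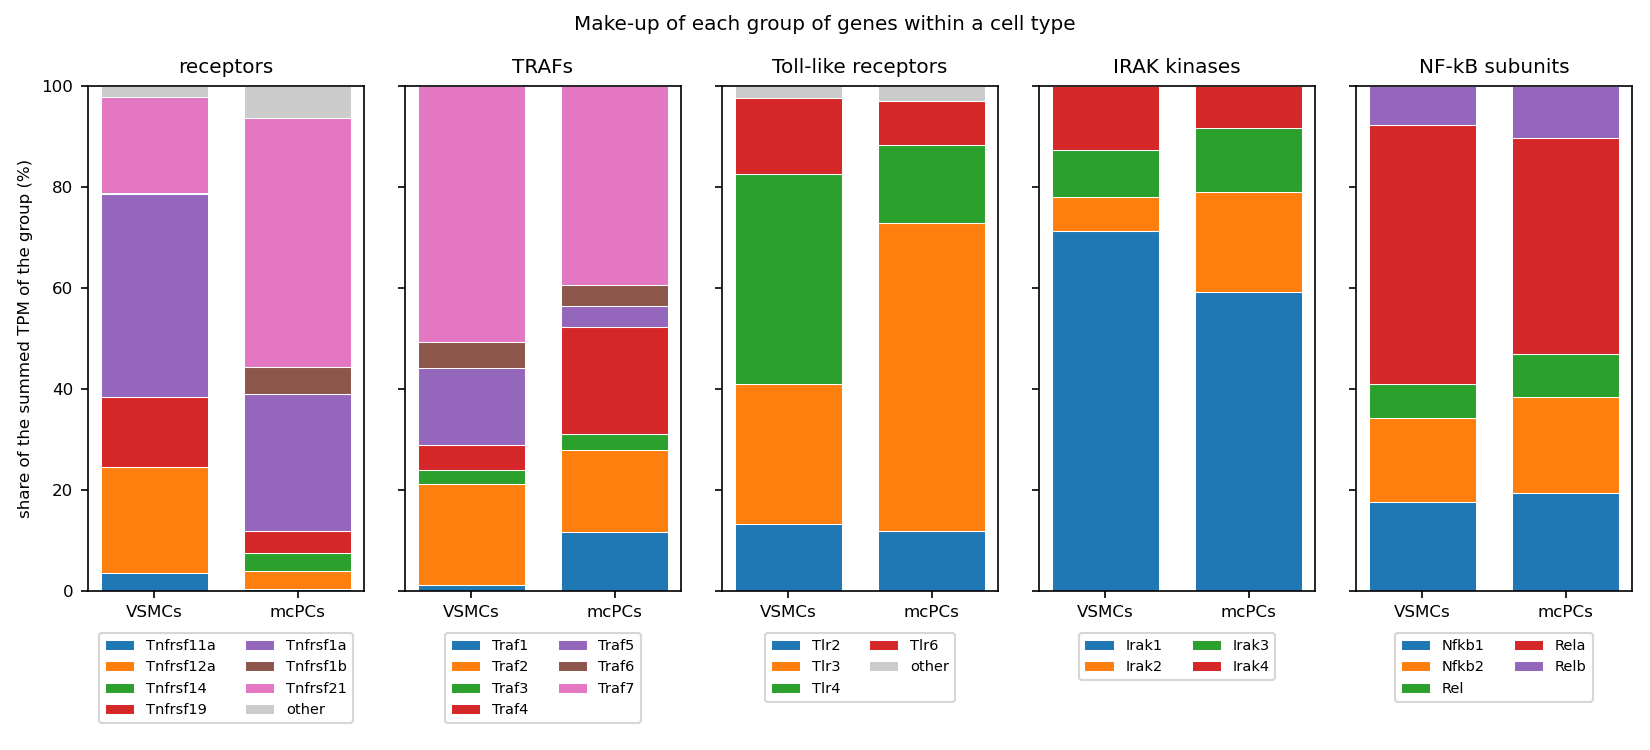
Share of each gene in the summed TPM of its group within VSMCs and within mcPCs (percent, stacked bars summing to 100), for receptors, TRAFs, Toll-like receptors, IRAK kinases and NF-kB subunits, with genes under 3% in both cell types joined as other. Tnfrsf21 widens from 19.0% to 49.4% of receptors and Tlr3 from 27.8% to 60.9% of Toll-like receptors, whereas the NF-kB subunits keep similar shares.

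The TRAF adaptors link the receptors to downstream kinases, and 4 of 7 differed less than 2-fold. Traf7 was the most abundant, at 63.3 TPM in VSMCs against 15.9 in mcPCs (log2 ratio -0.19). Traf2, the main adaptor of the TNF receptors, was measured at 24.9 TPM in VSMCs against 6.57 in mcPCs (-0.11), Traf6, the ubiquitin ligase of the Toll-like receptor route, at 6.29 TPM in VSMCs against 1.68 in mcPCs (-0.11) and Traf3, which restrains the alternative NF-kB route, at 3.40 TPM in VSMCs against 1.22 in mcPCs (0.25). Traf1, an adaptor without the RING domain of the others and itself a known target of NF-kB, was higher in mcPCs, at 1.43 TPM in VSMCs against 4.73 in mcPCs with 98.7 and 536 reads a sample, a difference of 11.5-fold (10.1 to 13.0). Traf4 was also higher there, at 6.29 TPM in VSMCs against 8.60 in mcPCs with 460.3 and 1148 reads a sample, a difference of 4.77-fold (4.48 to 5.09). Traf5 stood the other way, at 19.1 TPM in VSMCs against 1.67 in mcPCs with 1149 and 184 reads a sample, 3.29-fold (3.01 to 3.61) higher in VSMCs. The TPM of Traf2 was 17.5 times that of Traf1 in VSMCs and 1.39 times in mcPCs.

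By TPM, the listed Toll-like receptors were below the median of all genes in both cell types, except Tlr3 in mcPCs (percentile 55.1). By normalized counts, 3 of the 5 were past 2-fold towards mcPCs, of which Tlr2 and Tlr10 had a lower TPM there. Tlr3, the endosomal sensor of double-stranded RNA, was the highest in mcPCs, at 2.88 TPM in VSMCs against 4.39 in mcPCs with 388 and 1134 reads a sample, a difference of 5.37-fold (5.02 to 5.74). Tlr4, the sensor of bacterial lipopolysaccharide, was the highest in VSMCs, at 4.32 TPM in VSMCs against 1.12 in mcPCs (log2 ratio -0.12). The order of the pair was reversed between the cell types, Tlr3 being at 0.668 times the TPM of Tlr4 in VSMCs and 3.92 times in mcPCs. Tlr2, a sensor of bacterial lipoproteins, was present at 1.36 TPM in VSMCs against 0.859 in mcPCs with 128 and 153 reads a sample, a difference of 2.18-fold (1.90 to 2.50). Its partner Tlr6 stood at 1.56 TPM in VSMCs against 0.627 in mcPCs (log2 ratio 0.47). Tlr10 was near the limit of detection, at 0.251 TPM in VSMCs against 0.214 in mcPCs with 22.2 and 32.6 reads a sample, a difference of 2.92-fold (2.11 to 4.03). Tlr1, Tlr5, Tlr7, Tlr8 and Tlr9 have no row among the listed genes.

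Myd88, the adaptor of all Toll-like receptors except Tlr3, was among the 5 most abundant of the 56 genes in VSMCs and stood on the other side from Tlr3. It was found at 68.3 TPM in VSMCs against 5.88 in mcPCs, with 6160 and 988 reads a sample, 3.34-fold (3.22 to 3.48) higher in VSMCs, and moved from percentile 85.0 of all genes in VSMCs to 63.0 in mcPCs. By normalized counts none of the 4 IRAK kinases was lower in mcPCs, although by TPM Irak1, Irak3 and Irak4 were. Irak4, the first kinase of the complex, was measured at 5.93 TPM in VSMCs against 1.79 in mcPCs (log2 ratio 0.10) and Irak1, the most abundant, at 33.3 TPM in VSMCs against 12.6 in mcPCs (0.41). Irak2 was present at 3.11 TPM in VSMCs against 4.22 in mcPCs with 347 and 853 reads a sample, 4.64-fold (4.31 to 4.99) higher in mcPCs. Irak3, a family member that lacks kinase activity and restrains the signal, stood at 4.35 TPM in VSMCs against 2.67 in mcPCs with 523 and 592 reads a sample, 2.10-fold (1.96 to 2.25) higher in mcPCs by normalized counts, although its TPM was lower there. Irak1bp1, which binds Irak1 and is no kinase, had a log2 ratio of -0.50.

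The NF-kB subunits differed less than 2-fold by normalized counts, all 5 lying between -0.10 and 0.46 on the log2 scale. Rela (p65, the main activating subunit) was the most abundant, at 101 TPM in VSMCs against 26.6 in mcPCs, a ratio of normalized counts of 0.932 (95% counting interval 0.913 to 0.952), and made up 51.3% in VSMCs and 42.9% in mcPCs of the subunit TPM. Nfkb1, the precursor of p50, stood at percentile 73.0 of all genes in VSMCs and 79.5 in mcPCs (0.27), and Nfkb2, the precursor of p52, at 32.9 TPM in VSMCs against 11.8 in mcPCs (0.32). Rel was found at 13.5 TPM in VSMCs against 5.30 in mcPCs (0.41) and Relb, the subunit of the alternative route, at 15.0 TPM in VSMCs against 6.33 in mcPCs (0.46). For Relb the mean effective length was 1.54 times longer in mcPCs, and without a length correction its log2 ratio was 0.94 with counts scaled to the same total and 1.49, past 2-fold, with counts scaled without erythrocyte markers. In percentiles of all genes, Rela stood at 89.6 in VSMCs and 90.6 in mcPCs.

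Of the IKK genes, Ikbkb (IKK-beta, the kinase of the classical route) was measured at 29.3 TPM in VSMCs against 6.81 in mcPCs (-0.31) and Ikbkg (NEMO, its regulatory subunit) at 14.7 TPM in VSMCs against 2.72 in mcPCs (-0.65). Ikbke, a kinase related to TBK1 that acts towards interferon genes, stood apart from them. It was present at 3.47 TPM in VSMCs against 4.38 in mcPCs with 423 and 975 reads a sample, 4.32-fold (4.04 to 4.62) higher in mcPCs, and the TPM of Ikbkb was 8.46 times that of Ikbke in VSMCs and 1.55 times in mcPCs. Ikbkap, taken by its symbol alone, encodes a subunit of the Elongator complex and had a log2 ratio of -0.58.

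Among the genes at or above 0.8 TPM in VSMCs, the largest ratio belonged to a protein that restrains NF-kB. Tnfaip3 (A20, which edits ubiquitin chains and terminates the signal) stood at 3.68 TPM in VSMCs against 28.9 in mcPCs, from 330 and 4730.3 reads a sample, 26.7-fold (25.1 to 28.6) higher in mcPCs. It moved from percentile 30.0 of all genes in VSMCs to 91.4 in mcPCs. Its promoter, printed above, holds 3 matches to the kB motif, as does that of Tnip1, which differed less than 2-fold. A link between matches and levels was not tested. In mcPCs the TPM of Tnfaip3 exceeded that of Ptprc (15.1) and was below that of Coro1a (50.5) and Laptm5 (38.2). Its partners, the A20-binding proteins, did not follow. Tnip1 was found at 31.2 TPM in VSMCs against 7.22 in mcPCs (log2 ratio -0.30), and Tnip2 at 44.3 TPM in VSMCs against 4.80 in mcPCs with 2472 and 493 reads a sample, 2.67-fold (2.53 to 2.83) higher in VSMCs. The TPM of Tnfaip3 was 0.118 times that of Tnip1 in VSMCs and 4.00 times in mcPCs.

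The other TNFAIP genes, named for induction by TNF or for likeness to Tnfaip8, differ in function. Tnfaip1, an adaptor of a ubiquitin ligase, was the most abundant in VSMCs, at 62.1 TPM in VSMCs against 19.1 in mcPCs, and differed little (0.13). Tnfaip8l2 (TIPE2, a restraint on immune cell activation) was measured at 0.493 TPM in VSMCs against 2.02 in mcPCs, from 22.7 and 176 reads a sample, 14.0-fold (10.9 to 18.3) higher in mcPCs. Of its relatives, Tnfaip8l1 was present at 0.569 TPM in VSMCs against 1.32 in mcPCs (8.33 and 33.3 reads a sample), 8.14-fold (5.21 to 13.2) higher in mcPCs. Tnfaip8l3 stood at 0.232 TPM in VSMCs against 0.213 in mcPCs (17 and 30.7 reads a sample), 3.22-fold (2.26 to 4.63) higher in mcPCs by normalized counts and lower by TPM. Tnfaip8 itself was found at 9.56 TPM in VSMCs against 4.82 in mcPCs (0.78). Tnfaip6 (TSG-6, a hyaluronan-binding protein) rested on few reads, with 2.33 and 12.3 reads a sample (0.0477 TPM in VSMCs against 0.141 in mcPCs), a difference of 9.25-fold (4.07 to 24.6). Tnfaip2 was measured at 0.557 TPM in VSMCs against 0.239 in mcPCs (0.59).

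**Figure D4:**
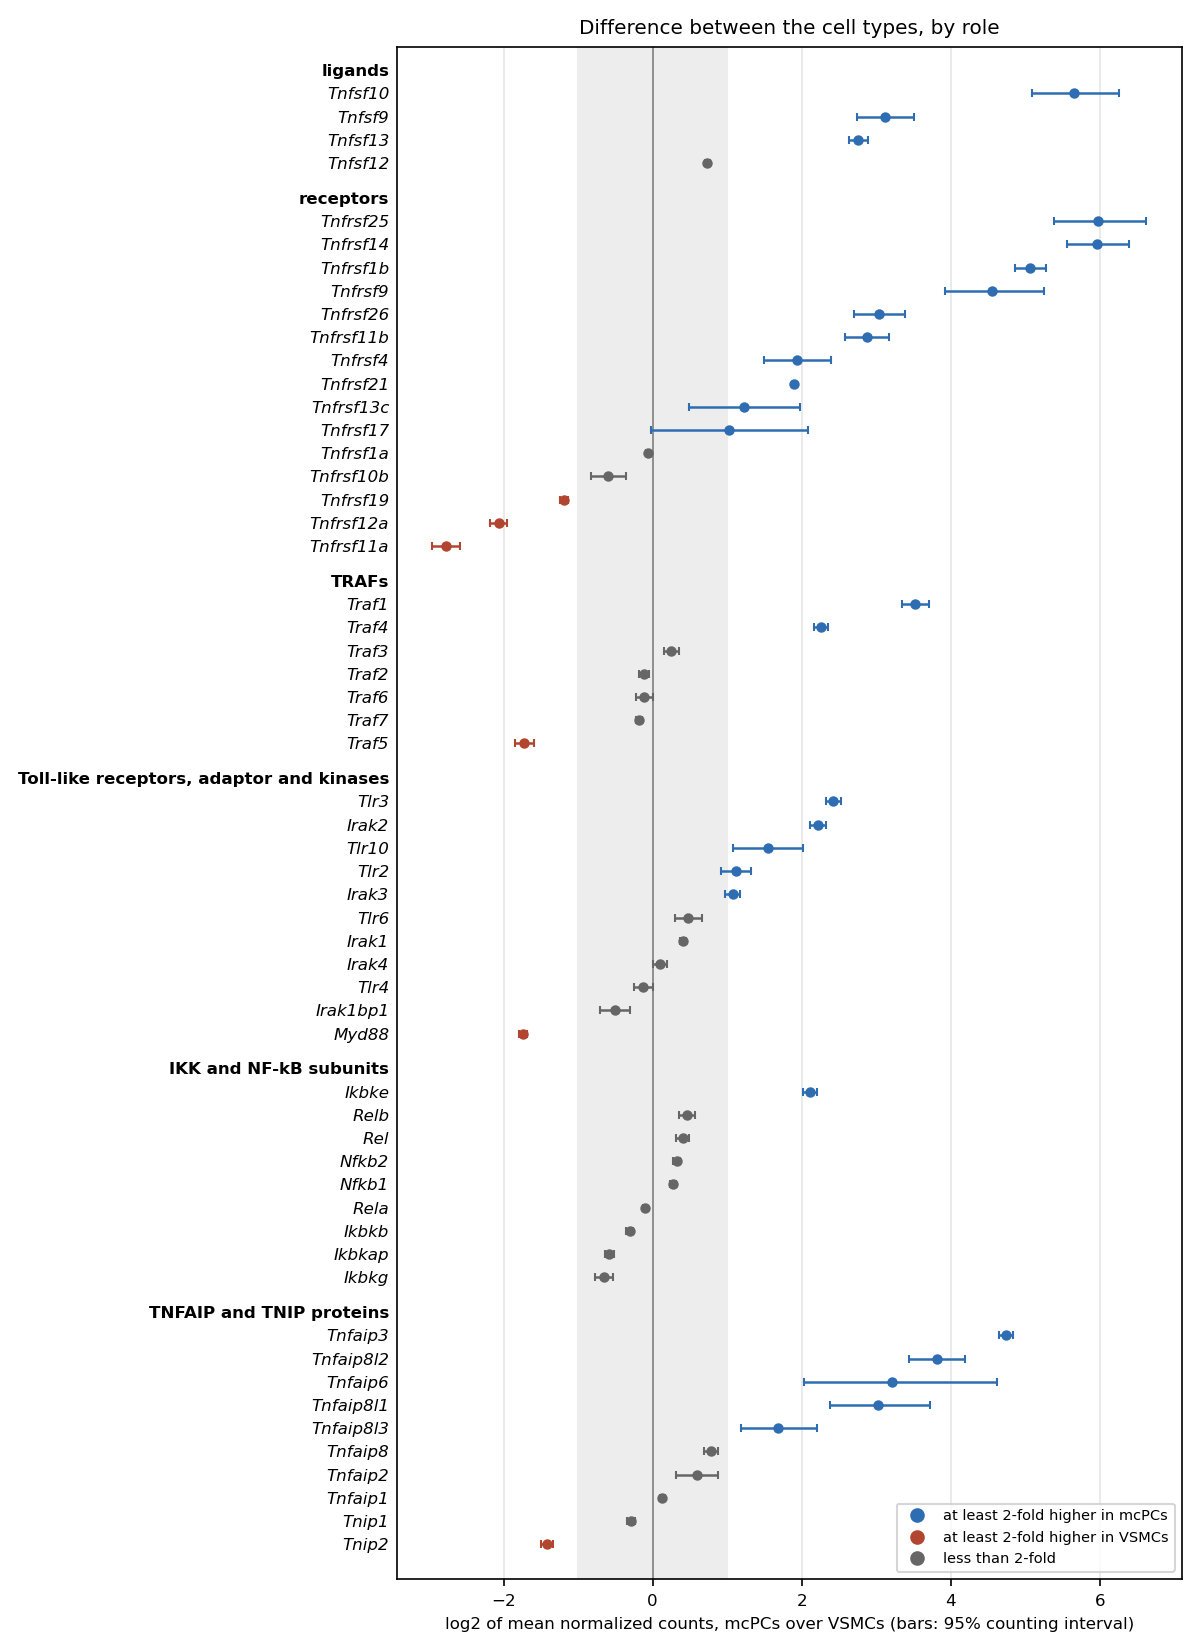
Log2 ratio of mean normalized counts (mcPCs over VSMCs) of the 56 genes by role, with bars for the 95% counting interval, which does not cover the spread between isolations, and a grey band for less than 2-fold. The 5 NF-kB subunits lie inside the band, Tnfrsf25 and Tnfrsf14 lie near 6, and Tnfrsf11a is the lowest at -2.77.

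Across the roles, the genes at least 2-fold higher in mcPCs were 3 of 4 ligands, 10 of 15 receptors, 2 of 7 TRAFs, 5 of 11 Toll-like receptors, adaptor and kinases, 1 of 9 IKK and NF-kB genes and 5 of 10 TNFAIP and TNIP genes, against 22.0% of all genes and 67.4% of all genes below 0.8 TPM in VSMCs. The median log2 ratio was 2.93 for ligands, 1.90 for receptors, -0.11 for TRAFs, 0.47 for the Toll-like receptor group, 0.27 for the IKK and NF-kB group and 1.24 for the TNFAIP and TNIP group. The roles also differed in level, the median TPM being 0.625 in VSMCs and 1.19 in mcPCs for receptors, 2.19 and 4.35 for ligands, and 16.1 and 6.33 for the IKK and NF-kB group. The part of the low level in VSMCs in the counts by role was not tested.

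Other genes of the pathway, taken from a list by function, were less one-sided when genes of all levels were counted. Of 64 pathway genes with a value, 18 (28.1%) were past 2-fold in mcPCs and 11 (17.2%) in VSMCs, against the 22.0% and 13.9% of all genes, with a median log2 ratio of 0.20. By the ratio of TPM as it stands the split was 7 and 44 (all genes 8.17% and 74.8%). With counts scaled to the same total it was 12 and 20 (all genes 15.5% and 28.8%). The highest ratios among those with at least 10 reads per sample in the higher cell type belonged to Faslg, the ligand of the death receptor Fas, and Ltb, a lymphotoxin subunit of lymphocytes. Faslg was present at 0.0472 TPM in VSMCs against 3.51 in mcPCs, from 2.67 and 368 reads a sample (log2 ratio 7.98), and Ltb at 0.278 TPM in VSMCs against 12.8 in mcPCs, from 8.67 and 740.0 reads a sample (7.31). They were followed by Nfkbid, a nuclear inhibitor protein of the NF-kB family, at 0.635 TPM in VSMCs against 4.39 in mcPCs (4.53), Cd40, the costimulatory receptor of antigen-presenting cells, at 1.34 TPM in VSMCs against 6.01 in mcPCs (3.98), and Tbkbp1, a partner of TBK1, at 1.17 TPM in VSMCs against 4.21 in mcPCs (3.64). The lowest ratios belonged to the TNF receptor relative Relt at 19.8 TPM in VSMCs against 1.34 in mcPCs (-2.21), Cd14, the co-receptor of Tlr4, at 35.9 TPM in VSMCs against 2.64 in mcPCs (-1.99), and the ubiquitin ligase Peli1 at 84.2 TPM in VSMCs against 6.48 in mcPCs (-1.90). Nkrf, a repressor of NF-kB, and Fadd, the adaptor of death receptors, followed at -1.40 and -1.37. Nfkbia, the classical inhibitor that NF-kB itself induces, stood at 125 TPM in VSMCs against 76.5 in mcPCs (1.06), its TPM being lower in mcPCs while its normalized counts were higher. Chuk, which encodes IKK-alpha, the other catalytic subunit, was found at 15.9 TPM in VSMCs against 3.32 in mcPCs (-0.45). Ticam1, the adaptor of Tlr3, and Ly96, the partner of Tlr4, have no row among the listed genes.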

How the data were processed

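RNA was purified as polyA+ mRNA from 3 VSMC and 3 mcPC samples, and strand-specific libraries were sequenced in 4 runs each. The authors ran the Eoulsan workflow, with Salmon 0.8.0 quantifying Ensembl transcripts of Rnor_6.0, tximport for gene-level sums and DESeq2 for normalization and comparison. They kept the genes that reached 1 read in every sample. Their final set then left out genes below 0.8 TPM in VSMCs and the transcripts most enriched in mcPCs, which were mainly of erythrocyte genes. The genes listed here are those before these 2 filters. The deposited table gives means per cell type only. Its TPM values are the authors' mean abundances. The deposited estimated counts, Salmon estimates averaged by the authors, come out as means per run and were multiplied by 4 to give reads per sample. At a tolerance of 0.01 read over 12 runs, 69.8% of genes gave whole reads in VSMCs and 71.5% in mcPCs. The deposited normalized counts are a signal, counts divided by factors that include mean effective lengths, also deposited. The deposited fold changes, standard errors and p-values of the authors' comparison were not used.

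The 56 genes, their roles and the lists of pathway and marker genes were chosen with earlier results of these data known. The count test planned for values per sample was not run, because the table holds means. Each difference is the ratio of mean normalized counts, mcPCs over VSMCs, with no pseudocount, called at 2-fold. Exact binomial (Clopper-Pearson) 95% intervals of the reads were moved to the normalized scale. Reads that match several genes are shared by Salmon, and 13 of the 56 genes had estimated counts that are not whole, among them Tnfrsf14, Tnfrsf21, Tnfsf10, Tlr3 and Tlr10. Named genes are all members past 2-fold, the most abundant ones, those leading each role, and the 5 highest and 5 lowest ratios of the pathway list with at least 10 reads per sample. The other members were named for completeness, and Nfkbia, Chuk and the single markers after their values were seen. Promoters are RefSeq sequences of GRCr8, matched by Entrez gene identifier, with no coordinate converted from Rnor_6.0. Of 76 RefSeq protein-coding genes that fit the symbols, 21 have no row among the listed genes. Alternatives in scale, pseudocount, filter and threshold were computed. The steps were tested on simulated data. The tools were scipy 1.17.1, pandas 2.3.3, numpy 2.4.6 and matplotlib 3.10.9 under Python 3.11.15.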

Additional observations from a re-analysis of the deposited data

How the results depend on the processing

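The values are means of 3 samples per cell type, so their spread is unknown and no sample could be left out in turn. No paired analysis was possible because no value per sample was at hand. The scale mattered most. By the ratio of mean TPM as it stands, 13 of the 56 genes were higher in mcPCs and 29 in VSMCs. The shares of all genes were 8.17% and 74.8%. The pathway genes split into 7 and 44, and the median of the 56 genes was -1.16, against -1.79 for all genes. The log2 ratio then turned from positive to negative for 18 of the 56 genes, of which 6 had been past 2-fold, namely Irak3 (-0.70), Tlr2 (-0.67), Tnfrsf13c (-0.60), Tnfrsf17 (-0.58), Tlr10 (-0.23) and Tnfaip8l3 (-0.12). Relative to the median gene, TPM gave 26 and 6 of the 56 genes. Counts scaled to the same total moved the median of all genes to -0.55. On that scale 21 of the 56 genes were higher in mcPCs and 10 in VSMCs, against 15.5% and 28.8% of all genes. The pathway genes higher in VSMCs numbered 20 and the median of the 56 genes was 0.18. Scaling without erythrocyte markers and without a length correction gave 27 and 5, Relb passing 2-fold (1.49) and Tnfrsf19 no longer doing so (-0.70). A pseudocount of 10 lowered the median to 0.48, a minimum of 0.8 TPM in VSMCs to 0.13, with 10 genes higher in mcPCs, and the same minimum in either cell type to 0.41. At 4-fold, 18 of the 56 genes were higher in mcPCs and 2 in VSMCs, against 12.4% and 5.72% of all genes. The pathway genes numbered 9 and 1 of 64 at that threshold. At 1.5-fold, 17 of the 64 pathway genes were higher in VSMCs, against 23.4% of all genes. Genes with a few reads, such as Tnfrsf17 and Tnfaip6, are limited by depth.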

Other observations

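Genes known as targets of NF-kB differed in both directions. Of 28 genes on a list of textbook targets, 21 had a value, of which 7 (33.3%) were at least 2-fold higher in mcPCs and 10 (47.6%) in VSMCs, against 22.0% and 13.9% of all genes, with a median log2 ratio of -0.67. The lowest ratios belonged to Plau, the urokinase protease, at 132 TPM in VSMCs and 0.288 TPM in mcPCs (-7.12), Gadd45b, a stress sensor, at 1691 and 16.4 TPM (-4.90), the cytokine Il6 at 7.56 and 0.144 TPM (-3.95), and Ier3, an early response gene, at 443 and 16.2 TPM. The adhesion molecule Icam1 was found at 123 and 9.35 TPM (-1.91). The highest ratios belonged to complement C3 at 0.0288 and 0.994 TPM (6.88), the adhesion molecule Vcam1 at 0.854 and 2.63 TPM (3.31), the chemokine Cxcl10 at 1.33 and 2.02 TPM (2.40) and the prostaglandin synthase Ptgs2 at 1.42 and 1.69 TPM (1.97). The list was chosen with earlier results of these data known, and 3 of its genes, Bcl3, Birc3 and Nfkbia, are also among the pathway genes. The arterioles were dissociated with other enzymes than the filtrate, so that cell type and dissociation cannot be told apart in these values.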
